A study of Mus musculus with 6 samples.

Results

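The genes of the elastic fibre and its microfibrils were followed in injured mouse tendon: 10 of the 18099 genes in the deposited table. They were taken by symbol for their role and comprise the gene of tropoelastin (Eln), the fibrillins (Fbn1, Fbn2), the fibulins (Fbln1, Fbln2, Fbln5, Efemp1 and Efemp2, the last pair also called fibulin 3 and fibulin 4) and the microfibril-associated proteins Mfap4 and Mfap5. The choice was made with earlier results of these data known. All 10 had enough reads to be tested. Whole tissue of the Achilles tendon was sequenced from mice operated as neonates, 7 days after the tendon had been cut across. The LysM-Cre group held 3 mice of the genotype LysM-Cre; Ampkα1 fl/fl, in which Cre made from the lysozyme M locus removes Ampkα1 (gene Prkaa1) in myeloid cells as a class, neutrophils as well as macrophages. The control group held 3 Ampkα1 fl/fl littermates without Cre, so the floxed allele was common to both groups and the Cre insertion was not. There was no uninjured tissue among the 6 libraries, and each library is given by its group and replicate number.

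Elastic fibres let a tissue stretch and recoil. They consist of a core of cross-linked elastin laid on a scaffold of microfibrils, which are strings of fibrillin with attached glycoproteins. Tropoelastin is brought to this scaffold by fibulin 4 and fibulin 5, is cross-linked there by lysyl oxidases, and in tendon the fibres run between and along the collagen fascicles and around the cells. The microfibrils also hold latent TGF-β and BMP ligands, so that the same genes bear on growth factor supply.

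The libraries held between 18076812 and 19479895 reads. Prkaa1 stood at 38.2 ± 0.842 and 36.2 ± 4.07 CPM (reads scaled to library size by TMM, SD, n = 3 each) in the control and LysM-Cre groups, and did not pass the edgeR test (adjusted p = 0.744). Lyz2, which the Cre insertion interrupts, was down to 9, 15 and 8 reads in the LysM-Cre libraries, against a control mean of 407 ± 17.4 CPM (SD, n = 3), so the genotype labels matched the locus that carries Cre. The near loss of Lyz2 RNA is thus a further difference between the groups, and its part in the values below was not tested. The tissue label matched its markers as well, since Col1a1 (mean 17475 TPM over the 6 libraries), Tnmd (3549 TPM) and Scx (281 TPM) were all expressed, and 0 of 11 tendon markers passed the edgeR test (1 at an unadjusted p under 0.05). TPM is a level per transcript length with the same total in each library, and is used below wherever levels of different genes are compared. Genes of skeletal muscle took 0.03, 0.09 and 0.49% of reads in control replicates 1, 2 and 3, and 0.51, 0.17 and 1.42% in LysM-Cre replicates 1, 2 and 3. In whole tissue, fewer cells of a type and less RNA per cell cannot be told apart.

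Of the 10 genes, Efemp1 was lower in the LysM-Cre group in edgeR's quasi-likelihood test (adjusted p under 0.05 over 14261 genes), and none was higher. The share of all genes tested that passed was 0.898%, with 0.568% lower and 0.33% higher. Without the adjustment, 4 members had p under 0.05 in that test (Eln, Fbn1, Fbln1 and Efemp1), all lower, where 8.55% of all genes were lower and 5.97% higher at that level. In the same 4 genes every LysM-Cre library lay below every control library, which held for 11.4% of all genes (20.4% in either direction). The other 6 (Fbn2, Fbln2, Fbln5, Efemp2, Mfap4 and Mfap5) overlapped between the groups. The median log2 fold change of the 10 was -0.04, beside 0 for all genes tested, with 5 members lower and 5 higher, where 50.6% of all genes were lower. Fold changes are LysM-Cre over control throughout.

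**Figure D1:**
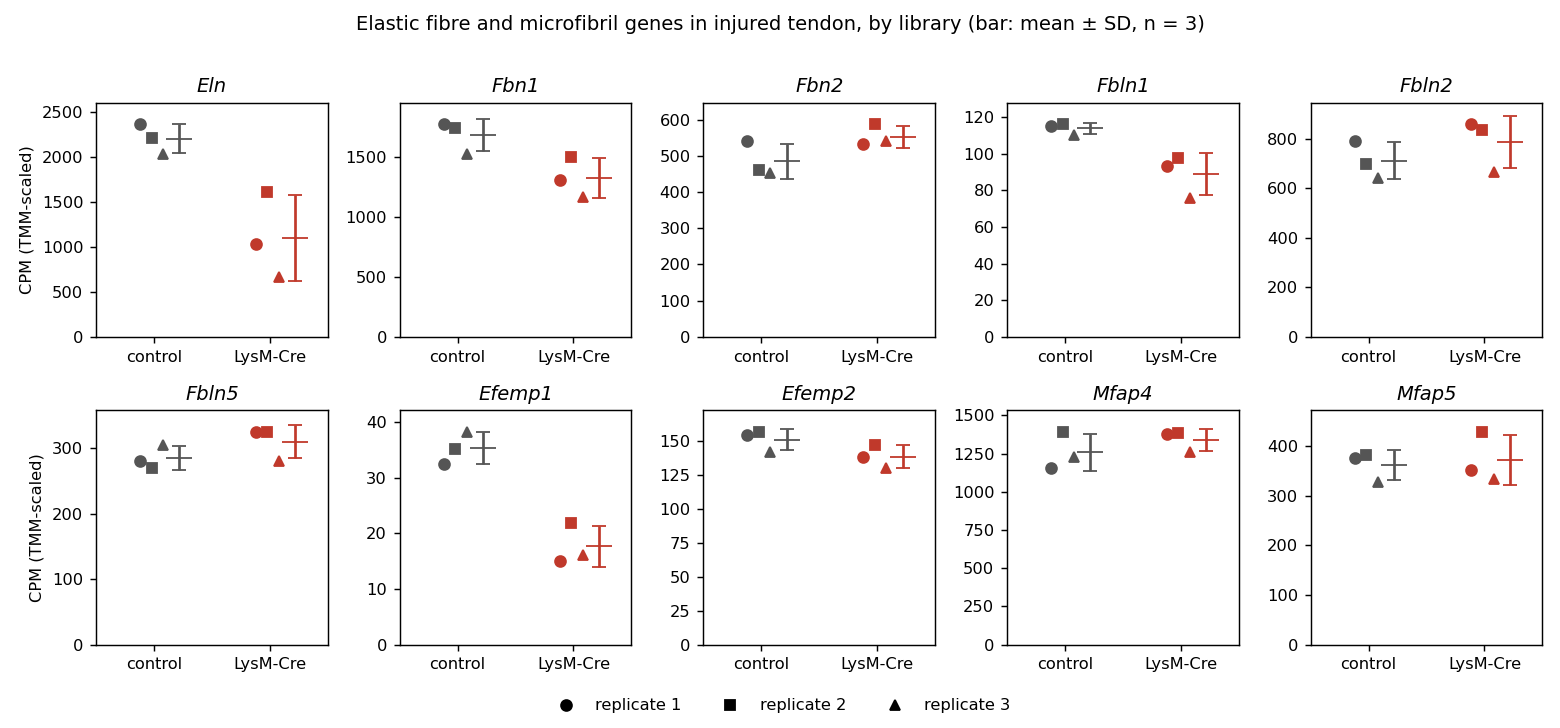
CPM of each of the 10 genes in each library (grey control, red LysM-Cre; symbols mark the replicate number; the bar at the side is the mean ± SD, n = 3; each axis starts at 0). Eln and Efemp1 stand apart between the groups, Fbn1 and Fbln1 do so by a narrow gap, and the other 6 overlap; LysM-Cre replicate 2 is the LysM-Cre library nearest to the controls for Eln, Fbn1, Fbln1 and Efemp1.

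Eln encodes tropoelastin, the soluble monomer of elastin (chromosome 5, 134702595 to 134747368 in GRCm38.p6). It had 44644, 40317 and 37120 reads in control replicates 1, 2 and 3, and 19701, 29702 and 12266 reads in LysM-Cre replicates 1, 2 and 3. The groups did not overlap, the control libraries lay close together, and the LysM-Cre libraries covered a wider range than the gap between the groups. In CPM the means were 2200 ± 164 (SD, n = 3) and 1099 ± 476 (SD, n = 3), which put LysM-Cre over control at -1.0 on the log2 scale (standard error, SE, 0.29). This did not pass the edgeR test (adjusted p = 0.181, unadjusted p = 0.0109). The exact two-sided permutation test gave p = 0.1, the smallest that 3 against 3 allows. Of all genes tested, 1.61% had a log2 fold change of -1 or lower. Without LysM-Cre replicate 2 the log2 fold change was -1.38 and passed (edgeR adjusted p = 0.0392), and without LysM-Cre replicate 3 it was -0.74 (adjusted p = 0.206). LysM-Cre replicate 3 had the least Eln and the most skeletal muscle RNA, and LysM-Cre replicate 2 had the most Eln and the least muscle RNA of its group. With the muscle level as a covariate the log2 fold change was -0.67 (edgeR adjusted p = 0.328). Control replicate 3 and LysM-Cre replicate 1 had nearly the same muscle share, 0.49% and 0.51%, and 2035 and 1027 CPM of Eln. That is 1 library against 1, and the part of muscle content in the Eln difference was not tested.

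Eln was next set against other genes of the same library. It held 25.1, 22.3 and 22.7% of the summed TPM of the 10 genes in the control libraries, and 12.0, 17.0 and 8.94% in the LysM-Cre libraries. That sum includes Eln, so the share falls with Eln and is not separate evidence. The shares of Mfap4, Mfap5, Fbln2, Fbln5 and Fbn2 were higher in every LysM-Cre library, though their CPM overlapped between the groups. The ratio of Eln to Fbn1, the scaffold on which elastin is laid, was 3.62, 3.47 and 3.63 in the controls and 2.15, 2.92 and 1.56 in the LysM-Cre libraries. Its ratio to Lox, the lysyl oxidase that cross-links it, was 2.63, 2.64 and 2.64 in the controls and 1.46, 1.81 and 0.934 in the LysM-Cre libraries. These ratios do not depend on the scaling between libraries. The groups did not overlap in either ratio, with p = 0.1 in the exact permutation test for each, and the 2 ratios, chosen after the values were seen, share the values of Eln and are not independent of its CPM.

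Fbn1 encodes fibrillin 1, the main structural protein of microfibrils (chromosome 2, 125300594 to 125506485). It had 33475, 31825 and 27801 reads in the control libraries and 25038, 27745 and 21497 in the LysM-Cre libraries. The groups were separated by a narrow margin, 1524 CPM in the lowest control against 1501 CPM in the highest LysM-Cre library. The means were 1678 ± 134 and 1323 ± 170 CPM (SD, n = 3 each), a log2 fold change of -0.34 (SE 0.11) that did not pass in edgeR (adjusted p = 0.204) and passed in DESeq2 (adjusted p = 0.0299).

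Fbn2 encodes fibrillin 2, the fibrillin most used in developing tissue. It had 10225, 8443 and 8234 reads in the control libraries and 10192, 10857 and 9986 in the LysM-Cre libraries. The groups overlapped through control replicate 1. On the log2 scale the difference was 0.19 (SE 0.09, edgeR adjusted p = 0.376). The 2 fibrillins therefore pointed in different directions without either passing the edgeR test, and their proportion separated the groups: the TPM ratio of Fbn2 to Fbn1 was 0.288, 0.25 and 0.279 in the controls and 0.384, 0.368 and 0.438 in the LysM-Cre libraries. The means were 0.272 ± 0.0199 and 0.396 ± 0.0365 (SD, n = 3 each, exact permutation p = 0.1). This ratio was chosen after the values were seen.

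**Figure D2:**
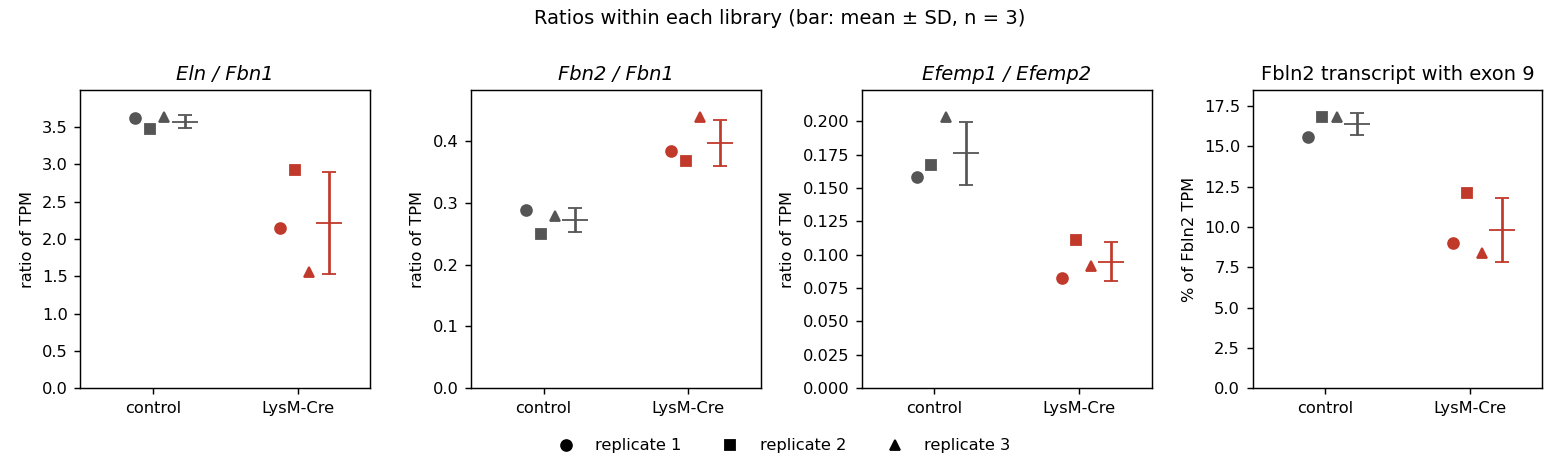
Values set against another gene or transcript of the same library (grey control, red LysM-Cre; symbols mark the replicate number; bar: mean ± SD, n = 3): the TPM ratios of Eln to Fbn1, Fbn2 to Fbn1 and Efemp1 to Efemp2, and the percentage of Fbln2 TPM held by the transcript with exon 9. The groups do not overlap in any of the 4 panels; Fbn2 to Fbn1 is higher in the LysM-Cre libraries and the other 3 are lower.

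Efemp1, or fibulin 3, encodes a secreted glycoprotein that binds tropoelastin and is found in fascia and other elastic tissues (chromosome 11, 28853154 to 28926743). It had 616, 646 and 699 reads in the control libraries and 288, 405 and 297 in the LysM-Cre libraries. The gap between the groups was wider than the spread within either. The means were 35.4 ± 2.87 and 17.7 ± 3.71 CPM (SD, n = 3 each), a log2 fold change of -1.0 (SE 0.15). It passed the edgeR test (adjusted p = 0.043), was lower in 3 of 3 pairs of libraries with the same replicate number (-1.09, -0.68 and -1.23 on the log2 scale, a direction shared by all 3 pairs in 18.8% of all genes), and had p = 0.1 in the exact permutation test. The size was steady and the call was not: over 16 alternatives the log2 fold change lay between -1.19 and -0.9, and 7 of the 16 called it. When replicate number entered the fit as a block, the value was -1.02 (edgeR adjusted p = 0.0611), a setting under which 0.33% of all genes passed. Without any one of the libraries other than LysM-Cre replicate 2, the edgeR adjusted p lay between 0.103 and 0.185, and without LysM-Cre replicate 2 it was 0.0169.

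The closest relative of Efemp1 among the members is Efemp2, or fibulin 4, which is needed for elastin cross-linking (chromosome 19, 5473946 to 5482520). Efemp2 had 2908, 2866 and 2587 reads in the control libraries and 2648, 2711 and 2402 in the LysM-Cre libraries. The groups overlapped, at 151 ± 7.85 and 138 ± 8.4 CPM (SD, n = 3 each, log2 fold change -0.13, SE 0.07, edgeR adjusted p = 0.457). The TPM ratio of Efemp1 to Efemp2 was 0.158, 0.167 and 0.203 in the controls and 0.0823, 0.111 and 0.0913 in the LysM-Cre libraries (exact permutation p = 0.1, chosen after the values were seen).

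Fbln1 encodes fibulin 1, which lies within the elastin core of elastic fibres (chromosome 15, 85205949 to 85286294). It had 2174, 2126 and 2011 reads in the control libraries and 1788, 1805 and 1401 in the LysM-Cre libraries. The controls were within a few CPM of each other at 114 ± 3.13 CPM (SD, n = 3), and all 3 LysM-Cre libraries were below them at 88.9 ± 11.6 CPM (SD, n = 3). The log2 fold change of -0.36 (SE 0.10) did not pass in edgeR (adjusted p = 0.159) and passed in DESeq2 (adjusted p = 0.0275). DESeq2 called 3 of the 10 members (Fbn1, Fbln1 and Efemp1), where it called 4.77% of all genes.

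To show the regions just before the members whose groups were apart, the upstream letters of Efemp1, Fbn1 and Fbln1, though not of Eln, are given from RefSeq (GRCm38.p6), 5′ to 3′ on the strand of the gene and cut where the annotated gene begins. Promoters were found for 6 of the 9 members looked up. Capitals mark matches, on either strand, to a GC box (GGGCGG) or to a form of the AP-1 site that allows any base in the middle (TGANTCA). These patterns cannot overlap. A TATA box, searched as TATAAA on either strand, was also looked for.
Efemp1, chr11:28852955-28853153, plus strand: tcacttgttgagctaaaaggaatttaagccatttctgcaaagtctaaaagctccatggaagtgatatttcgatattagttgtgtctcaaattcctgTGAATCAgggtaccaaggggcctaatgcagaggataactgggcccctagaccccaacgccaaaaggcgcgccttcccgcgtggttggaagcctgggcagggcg
Fbn1, chr2:125506486-125506688, minus strand: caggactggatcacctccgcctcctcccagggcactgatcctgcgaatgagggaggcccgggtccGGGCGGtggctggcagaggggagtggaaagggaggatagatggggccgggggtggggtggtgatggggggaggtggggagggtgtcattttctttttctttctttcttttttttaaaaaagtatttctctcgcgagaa
Fbln1, chr15:85205699-85205948, plus strand: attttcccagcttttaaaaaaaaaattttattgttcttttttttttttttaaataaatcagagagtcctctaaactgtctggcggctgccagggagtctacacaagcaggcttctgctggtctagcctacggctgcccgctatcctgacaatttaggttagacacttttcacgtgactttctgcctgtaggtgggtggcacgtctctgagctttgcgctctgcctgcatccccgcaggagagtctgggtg

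Over the full windows of 300 bases (250 before to 50 after the start), the Efemp1 promoter held 1 match to the AP-1 pattern (TGAATCA) and 1 GC box, the second of them past the letters shown. The Fbn1 promoter held 1 GC box, and the windows of Fbln1 at its 2 starts held 0 and 2. None of the 10 member promoters held a TATA box, and no other member promoter held a match to the AP-1 pattern. Of 32851 mouse promoters of the same length, 35.7% held a GC box, 13.6% a TATA box and 7.8% a match to the AP-1 pattern. Efemp1, Fbn1 and Fbln1 shared no match that the other members with a promoter here lacked, a comparison without Eln. Such matches describe letters, not bound sites.

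Fbln2 encodes fibulin 2, a binding partner of tropoelastin and fibrillin (chromosome 6, 91212460 to 91272540). It had 14990, 12814 and 11741 reads in the control libraries and 16481, 15461 and 12331 in the LysM-Cre libraries, and the groups overlapped (log2 fold change 0.14, SE 0.12, edgeR adjusted p = 0.646). Its total did not separate the groups. The estimated proportion of its transcripts did, as did that of 11% of comparable transcripts over all genes. Nearly all Fbln2 TPM was divided between a pair of RefSeq transcripts, NM_001081437 and NM_007992, which differ by exon 9 of 18 in NM_007992 and, in the GENCODE models used here, by 1 base at the end of the last exon. This exon of 141 bases lies on the plus strand of chromosome 6 from 91259630 to 91259770 (GRCm38, GENCODE), is wholly coding, and its length is a multiple of 3, so that leaving it out keeps the reading frame. The exon is shown in capitals between the last 20 bases of the exon before it and the first 20 of the exon after it, followed by the join without it.
NM_007992: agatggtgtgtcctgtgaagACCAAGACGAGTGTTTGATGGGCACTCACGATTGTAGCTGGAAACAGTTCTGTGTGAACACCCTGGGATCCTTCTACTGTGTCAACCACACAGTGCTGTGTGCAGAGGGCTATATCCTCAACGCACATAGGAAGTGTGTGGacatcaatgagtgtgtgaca
NM_001081437: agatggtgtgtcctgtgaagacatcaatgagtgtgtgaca

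The transcript with exon 9 held 15.6, 16.8 and 16.8% of Fbln2 TPM in the control libraries and 9.0, 12.1 and 8.4% in the LysM-Cre libraries. Its estimated reads were 2410, 2219 and 2031 in the control libraries and 1523, 1930 and 1072 in the LysM-Cre libraries. Every LysM-Cre library had a smaller share and fewer estimated reads of it than every control library, and the shares were 16.4 ± 0.69% and 9.83 ± 1.99% (SD, n = 3 each, exact permutation p = 0.1). The transcript without the exon held 82.1 ± 0.861% and 88.9 ± 1.87% (SD, n = 3 each). The division of reads between transcripts is an estimate by the authors' counting tool, and reads across the exon's junctions were not examined. Among 14 transcripts of 7 members that held between 5 and 95% of their gene, these 2 were the ones whose shares did not overlap between the groups, and 11% of all such transcripts (622 of 5636, in genes with at least 1000 reads in every library) did not overlap. The 2 Fbln2 shares nearly add up to the whole, so they are 1 difference seen from both sides, and 2 of 14 is not far from 11%. The Fbln2 shares were singled out after the values were seen. Fbln1 was divided between NM_001347088 (63.2 ± 1.7% in the control group and 61.0 ± 1.77% in the LysM-Cre group, SD, n = 3 each) and NM_010180, with overlapping shares.

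Fbln5 encodes fibulin 5, which tethers tropoelastin to microfibrils and to cells (chromosome 12, 101746565 to 101819119). It had 5293, 4927 and 5558 reads in the control libraries and 6222, 6016 and 5199 in the LysM-Cre libraries. The values interleaved, with a log2 fold change of 0.12 (SE 0.08, edgeR adjusted p = 0.539). Of the fibulins, then, Efemp1 and Fbln1 lay lower in every LysM-Cre library, and Fbln2, Fbln5 and Efemp2 overlapped.

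Mfap4 and Mfap5 encode glycoproteins that attach to fibrillin microfibrils. Mfap4 (chromosome 11, 61485431 to 61488708) had 21860, 25487 and 22378 reads in the control libraries and 26394, 25549 and 23296 in the LysM-Cre libraries. Mfap5 (chromosome 6, 122513584 to 122529290) had 7130, 7011 and 5989 reads in the control libraries and 6769, 7947 and 6191 in the LysM-Cre libraries. Both overlapped between the groups, with log2 fold changes of 0.09 (SE 0.08, edgeR adjusted p = 0.683) and 0.04 (SE 0.11, adjusted p = 0.921).

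Per length, the order of the 10 genes was nearly the same in both groups. Mfap4 was the most abundant, at 2064 ± 158 TPM in the control group and 2216 ± 173 TPM in the LysM-Cre group (SD, n = 3 each). Eln came next in the controls at 1248 ± 102 TPM, clear of Mfap5 at 610 ± 43.7 TPM. In the LysM-Cre group Eln came after Mfap5, at 631 ± 292 and 633 ± 106 TPM, and its range overlapped those of Mfap5 and Fbln2. Below these, Fbln2 and Fbn1 (351 ± 40.9 and 349 ± 27.8 TPM in the controls) overlapped each other, as did Fbln5 and Efemp2 (244 ± 19.2 and 237 ± 10.8 TPM). Fbn2 and Fbln1 overlapped in the controls (95.1 ± 11.3 and 94.8 ± 1.95 TPM) and were apart in the LysM-Cre group (109 ± 9.02 and 73.8 ± 11.4 TPM). Efemp1, the member that passed the test, was the scarcest in both groups, at 41.5 ± 3.62 and 20.9 ± 4.96 TPM. The 10 genes together summed to 5423.0, 5458.0 and 5124.7 TPM in the control libraries and to 4814.4, 5567.4 and 4119.4 TPM in the LysM-Cre libraries, which overlapped.

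**Figure D3:**
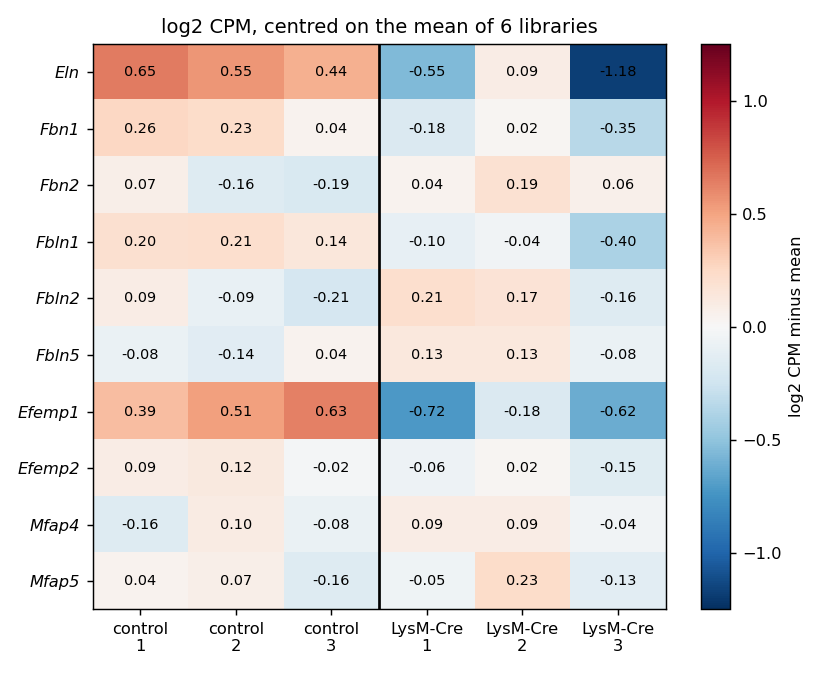
Log2 CPM of each gene in each library, centred on its mean over the 6 libraries (red above, blue below; the numbers are the plotted values). Eln and Efemp1 vary most, from 0.65 to -1.18 and from 0.63 to -0.72, and the lowest value is that of Eln in LysM-Cre replicate 3.

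The pattern over the 6 libraries was compared by the root mean square difference of centred log2 CPM, which is 0 for identical patterns. Fbn1 and Fbln1 were the closest pair of members (0.065). Eln was closest to Efemp1 (0.294) among the members and differed from it mainly in LysM-Cre replicate 3. Of 9921 genes of at least 10 CPM, the 5 most like Eln were Hhip (0.19), Arhgap20 (0.193), Lbp (0.196), Mrc1 (0.198) and Pi16 (0.2). Hhip encodes a hedgehog-binding membrane protein, Mrc1 the mannose receptor of macrophages, and Pi16 marks fibroblasts of fascia and vessel sheaths. Their log2 fold changes lay between -1.03 and -0.83, and none passed the edgeR test, the smallest adjusted p among them being that of Arhgap20 at 0.0791. The gene most like Efemp1 was again Pi16 (0.108), at 1646, 1655 and 1672 reads in the control libraries and 706, 1124 and 656 in the LysM-Cre libraries. Tnxb, the gene of the matrix protein tenascin X, was the fourth most like Efemp1 (0.15), at a log2 fold change of -1.05 (edgeR adjusted p = 0.0174, or 0.0258 under the replicate block). The genes like Efemp1 were looked up after the values were seen.

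Markers of fascia and tendon sheath fibroblasts had the same direction as Efemp1 and Eln. All 11 genes of that list had a negative fold change (median -0.43), and 2 passed the edgeR test (Dpp4 at -0.76, adjusted p = 0.0148, and Clec3b at -0.96, adjusted p = 0.031). Of all genes tested, 50.6% were lower and 0.568% passed as lower. In 7 of the 11 the groups did not overlap, where 11.4% of all genes were lower in this way. The groups overlapped in Pdgfra, Ly6a, Tppp3 (-0.11, edgeR adjusted p = 0.583) and Prg4 (-0.29, SE 0.39, adjusted p = 0.79). The summed TPM of the list was between 3568.5 and 4089.5 in the control libraries and between 2474.8 and 2960.8 in the LysM-Cre libraries, with none of its genes at 0. Smooth muscle and pericyte markers come from cells that also make elastin. They summed to between 1947.4 and 2060 TPM in the controls and between 1307.7 and 1834.7 in the LysM-Cre libraries. Of these 11 markers, 9 were negative and 0 passed in edgeR. At an unadjusted p under 0.05 in edgeR, 4 of them were lower and 1 was higher (Pdgfrb, 0.31). Of all genes, 8.55% were lower and 5.97% higher at that level. Endothelial markers were negative in 9 of 9 genes, with 0 passing in edgeR (3 at an unadjusted p under 0.05). Skeletal muscle markers were positive in 27 of 27, with 0 passing in edgeR (1 at an unadjusted p under 0.05), and the groups overlapped (569.7 to 8897.9 against 3140.5 to 26140.5 TPM). The part of these cell types in the differences of Eln and Efemp1 was not tested. The tendon markers summed to between 41314.6 and 47143.6 TPM in the controls and between 41645.5 and 46715.9 in the LysM-Cre libraries, which overlapped.

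The genes that assemble, cross-link, degrade or signal through these fibres were taken from lists written by role, with earlier results of these data known. Beside the counts given for them, 14.5% of all genes tested had an unadjusted p under 0.05 in edgeR. Of 27 other microfibril-associated and latent TGF-β binding genes, 14 were higher and 13 lower (median log2 fold change 0.05), and 0 passed the edgeR test, 10 having an unadjusted p under 0.05. The most abundant were Mfap2 (0.18, adjusted p = 0.333), Emilin1 (0.22, adjusted p = 0.212) and Ltbp4 (-0.21, adjusted p = 0.216). The largest fold changes were those of Mmrn1 (-0.68, adjusted p = 0.175), which encodes multimerin 1, and of Adamts6 (0.64, adjusted p = 0.0686), a protease that cleaves microfibril components. The ratio of Fbn1 to Mfap2, a small glycoprotein of the microfibril, was 0.397, 0.336 and 0.336 in the controls and 0.225, 0.288 and 0.223 in the LysM-Cre libraries, a ratio also chosen after the values were seen.

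All 5 lysyl oxidases had fold changes below 0 (median -0.11) and none passed in edgeR, with 2 at an unadjusted p under 0.05. Lox, the most abundant, was at -0.11 (SE 0.11, adjusted p = 0.682), Loxl2 at -0.29 (adjusted p = 0.193), Loxl1, the family member most tied to elastin, at -0.03 (adjusted p = 0.941), and Loxl3 at -0.15 (adjusted p = 0.257).

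Of 13 proteases able to degrade elastin, 10 had enough reads, 8 of them above 0 (median 0.16), and 0 passed in edgeR, 3 having an unadjusted p under 0.05. The most abundant were Mmp2 and Mmp14 (0.40 each, adjusted p = 0.126 and 0.171) and the cathepsin gene Ctsb (0.12, adjusted p = 0.573). Mmp2, Mmp14 and Ctsk (0.30, adjusted p = 0.0914) were higher in every LysM-Cre library than in any control, as were 8.94% of all genes. Ctsk was named after the values were seen. DESeq2 called Mmp2, Mmp14 and Ctsk (adjusted p = 0.000714, 0.0057 and 0.000252), where it called 4.77% of all genes. The largest fold changes belonged to the scarce neutrophil-associated genes Mmp9 (-0.63, SE 0.50, adjusted p = 0.628) and Prtn3 (-0.50, SE 0.86, adjusted p = 0.85). The summed TPM of the list was between 5603.2 and 5990.2 in the controls and between 6537.6 and 7811.6 in the LysM-Cre libraries. Of 12 inhibitors, 7 had enough reads, with 3 higher, 4 lower and 0 passing (3 at an unadjusted p under 0.05). Timp2 was at 0.30 (adjusted p = 0.137), Cst3 at -0.01 (adjusted p = 0.955), Timp1 at -0.08 (adjusted p = 0.913), Serpinb1a, an inhibitor of neutrophil elastase, at -0.73 (adjusted p = 0.127), and Timp4, with under 1 TPM, at 1.06 (adjusted p = 0.219).

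Of 12 genes of integrins and other receptors of elastic fibres, 7 were higher and 5 lower, with 0 passing in edgeR and 5 at an unadjusted p under 0.05. The most abundant were Itgb1 (0.01, adjusted p = 0.977), Ctsa (0.21, adjusted p = 0.492) and Itgb5 (0.34, adjusted p = 0.125), and the largest fold changes were those of Itgb6 (1.36, SE 0.78, adjusted p = 0.49) and Lgals3 (0.42, adjusted p = 0.153). Among 12 TGF-β and BMP ligands and receptors, 1 passed in edgeR, where 0.898% of all genes passed. This was Tgfb3, a ligand stored on microfibrils in latent form, which rose by 0.41 on the log2 scale (SE 0.07, edgeR adjusted p = 0.0467). Under the replicate block its edgeR adjusted p was 0.0953. Its reads were 6383, 6512 and 6259 in the control libraries and 9360, 7915 and 8613 in the LysM-Cre libraries. Tgfbr2 was at 0.18 (adjusted p = 0.25), Eng at -0.01 (adjusted p = 0.966), Bmp4 at -0.54 (adjusted p = 0.116) and the very scarce Gdf6 at -1.75 (SE 0.44, adjusted p = 0.139).

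**Figure D4:**
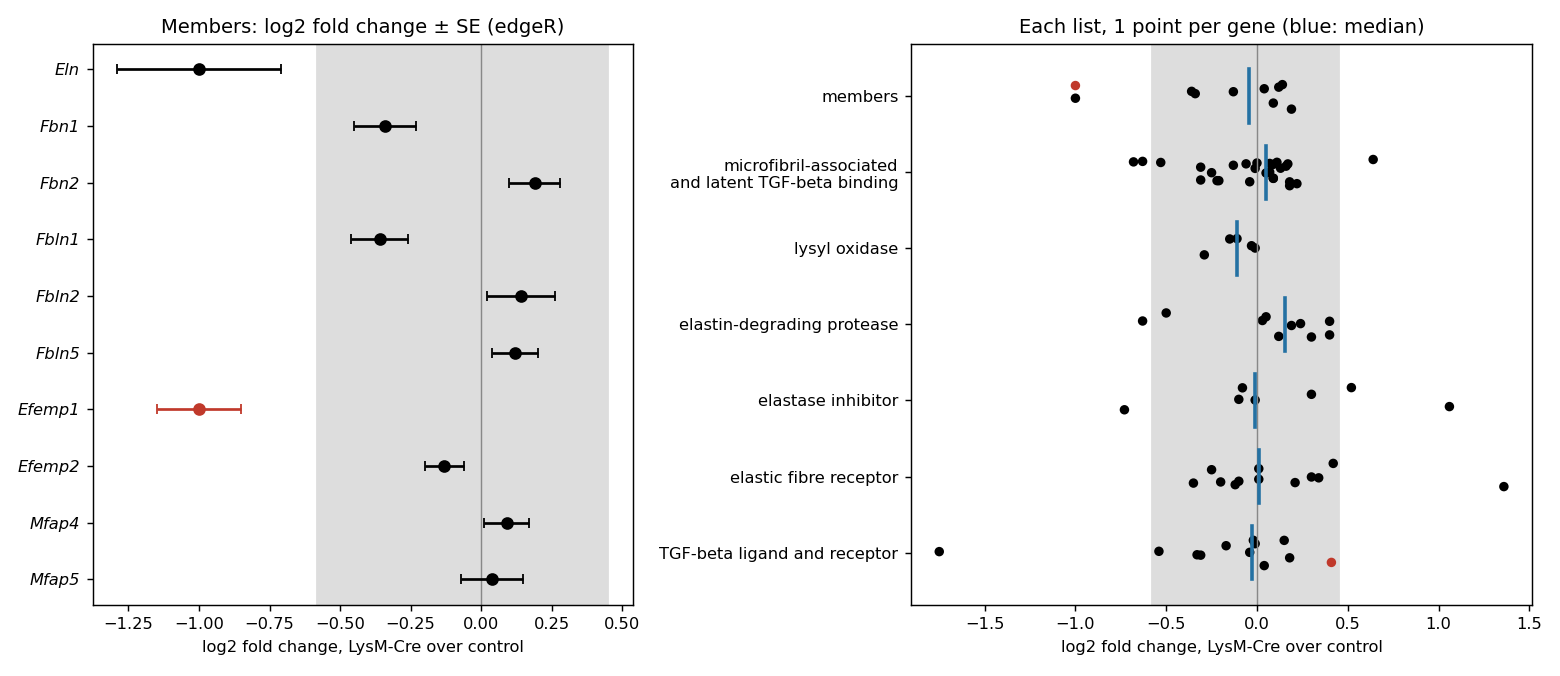
Log2 fold changes, LysM-Cre over control. Left, the 10 members with the standard error (SE) of the edgeR fit; right, each gene of the 10 members and the 6 related lists, with the median of the list as a blue bar. Red points passed the edgeR test (Efemp1 and Tgfb3), and grey shading spans the 5th to the 95th percentile of all 14261 genes, -0.58 to 0.45; Eln and Efemp1 lie outside it at -1.0.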

How the data were processed

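Total RNA of tendon tissue was sequenced by BGI. For 65053 RefSeq transcripts in each of 6 libraries the deposited table gives unnormalized values of the estimated count, and TPM, scaled by the authors to transcript length and library total. The submitters' processing notes name GRCm38.p6, and the aligner and counting tool are not given in the sources used here. FPKM and normalized values (12 columns) and 8 columns of averages were not used. Estimated counts were summed per gene, rounded, and tested with edgeR 4.0.16 in R 4.3.3 (TMM, filterByExpr, quasi-likelihood F test, Benjamini-Hochberg adjustment over 14261 genes, threshold 0.05). Single values were tested with the exact two-sided permutation test on log2(CPM + 0.5) or on the ratio. TPM was summed per gene. Of 18099 genes, 18049 were matched to a symbol through the RefSeq annotation. The members and lists were chosen with earlier results of these data known. All 10 members are named, with genes of each related list that passed the test, its 3 most abundant and its 2 with the largest absolute fold change, and the 5 genes most like Eln. Markers named beside them were chosen for their values. Promoter letters came from RefSeq and the exon from GENCODE M21.

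Libraries with the same replicate number deviated together from their group means (correlations of 0.184, 0.118 and 0.31 across genes), the numbers being those in the labels, so the block is given where it changes a call. Whether a number marks a litter or day is not stated. Alternatives were DESeq2 1.42.0, RLE and upper-quartile factors, TMM without muscle genes, no filter, at least 10 reads in every library, the replicate block, a muscle covariate, limma 3.58.1 on log2(TPM + 1) or log2(TPM + 0.1) for genes of at least 1 TPM, and leaving out each library. Each mouse gave 1 library, as far as the labels say, and p-values set the group difference against the variation between these libraries.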

Additional observations from a re-analysis of the deposited data

How the results depend on the processing

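The median log2 fold change of the 10 genes stayed between -0.12 and 0.04 over the 16 alternatives. The number of members called, 1 in edgeR, was 3 with DESeq2, 0 with the replicate block, 0 with the muscle covariate, 0 with limma on log2(TPM + 1), 0 with limma on log2(TPM + 0.1), and between 0 and 2 when a library was left out, the 2 being Eln and Efemp1 without LysM-Cre replicate 2. The number of all genes called, 128 (47 higher, 81 lower), was 680 with DESeq2 (302 and 378), 47 with the replicate block (11 and 36), 62 with the muscle covariate (21 and 41), 67 with limma on log2(TPM + 1) (24 and 43) and 57 with a pseudocount of 0.1 (20 and 37). Leaving out a library gave between 8 and 276 genes, with between 2 and 139 higher and between 6 and 137 lower: 8 without control replicate 2, 10 without control replicate 1, 12 without LysM-Cre replicate 1, 24 without control replicate 3, 60 without LysM-Cre replicate 3, and 276 without LysM-Cre replicate 2. The cause was not tested. Where 0 members passed, the number at an unadjusted p under 0.05 was 4 with the replicate block and with limma, 6 with the muscle covariate, and between 4 and 6 with a library left out, as against 4 in the edgeR test over all libraries and 5 in DESeq2. These were not always the same genes, nor all lower. With the muscle covariate Fbn2, Fbln2 and Mfap5 were among the 6 as higher, and Fbn1 was not. Fbln2 and Fbln5 joined as higher without LysM-Cre replicate 3, as did Fbn2 without control replicate 1 and in DESeq2. Over all genes, 2071 had such a p in edgeR, 2274 with the block, 1606 with the muscle covariate and 1830 in DESeq2. The block also ended the calls of Tgfb3, Acan and 5 of the 6 called genes of red blood cells. Mfap5 ranged from -0.08 to 0.11 when a library was left out, reversing without control replicate 3 (-0.03) and without LysM-Cre replicate 2 (-0.08). The other 9 members kept their direction in all 16 alternatives. With 3 libraries a group the exact test cannot go below 0.1. Each member had at least 288 reads in every library, and the part of depth in the calls was not tested. Protein, fibre structure and the stretch of the tissue were not analysed here.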

Other observations

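Cell division genes were lower in every LysM-Cre library than in any control for 12 of 12 genes listed, as were 11.4% of all genes. Their median log2 fold change was -0.63. Summed TPM was between 324.6 and 407.6 in the controls and between 192.4 and 298.5 in the LysM-Cre libraries. Of these genes 0 passed the edgeR test. All 12 had an unadjusted p under 0.05 in it, where 8.55% of all genes were lower at that level. Of 7 genes of red blood cells, all were lower and 6 passed in edgeR (median -1.59), or 1 with the replicate block. Over all genes, 50.6% were lower, 0.568% passed as lower in edgeR, and 0.33% passed in either direction with the block. Adipocyte markers were lower in 6 of 7 genes (median -0.75), with 0 passing in edgeR and 2 at an unadjusted p under 0.05.

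Among 11 cartilage genes, Acan, the gene of aggrecan, rose by a log2 fold change of 0.60 (edgeR adjusted p = 0.0298, or 0.0634 with the replicate block). In all, 4 of the 11 were higher in every LysM-Cre library than in any control, as were 8.94% of all genes. The other 7 had fold changes below 0 (median of the 11, -0.11), down to -1.89 for Col2a1 (SE 0.76, edgeR adjusted p = 0.316) and -3.2 for Cnmd (SE 1.26, adjusted p = 0.308), with overlapping groups. Control replicate 2 was the highest library for Col2a1, Cnmd, Col9a1, Col9a2, Col9a3 and Hapln1, and not for Col11a2. Col2a1 had 5020, 38245 and 6642 reads in the control libraries and 4103, 4346 and 5225 in the LysM-Cre libraries. For Col9a1, Col9a2 and Col9a3, control replicates 1 and 3 lay below every LysM-Cre library. Of 11 macrophage markers 8 were lower, and the one that passed was Lyz2, the locus that carries Cre. With Lyz2 counted, 6 were lower and 1 higher at an unadjusted p under 0.05 in edgeR. The groups did not overlap in 6 that were lower and 1 that was higher, where 11.4% and 8.94% of all genes did so. Adgre1 (-0.52, edgeR adjusted p = 0.0508), Csf1r (-0.63, adjusted p = 0.0933) and Mrc1 (-0.83, adjusted p = 0.115) were among the lower, and Mertk (0.21, adjusted p = 0.162) was the higher.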
